A study of Mus musculus with 8 samples.

Results

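Selectins and leukocyte adhesion molecules are the cell-surface proteins through which a blood cell is caught, held and passed across a vessel wall. The 10 genes described here are Sele, Selp, Selplg, Vcam1, Icam1, Icam2, Itgal, Itgam, Itgb2 and Itga4, found by gene symbol among the 45777 genes of the table. They were chosen by function, with earlier results of the same siPAK4 to siControl contrast in view, so their fold changes are a description and carry no test of their own. The cells were primary hepatic stellate cells, the retinoid-storing pericytes of the hepatic sinusoid, from male wild-type C57BL/6 mice. They had been transfected with siRNA against PAK4, a p21-activated kinase (siPAK4, 4 libraries), or with control siRNA (siControl, 4 libraries), and polyadenylated RNA was sequenced. The labels used here give no age or time after transfection. The labels do not say whether the replicates were separate animals, isolations or dishes, so the spread between libraries may be technical.

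Leukocyte adhesion runs in steps. Selectins on activated endothelium, E-selectin and P-selectin, bind sugar-modified ligands such as PSGL-1 and let leukocytes roll. Chemokine signals then switch leukocyte integrins to a state in which they grip the immunoglobulin-like counter-receptors ICAM-1, ICAM-2 and VCAM-1 on the vessel wall. E-selectin, VCAM-1 and ICAM-1 are textbook targets of NF-kB, and in liver VCAM-1 and ICAM-1 are also made by stellate cells, while sinusoidal endothelium carries little selectin at rest.

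The libraries held 55728583 to 59205049 counts in siPAK4 and 57297561 to 61535063 in siControl. Pak4 had 447, 335, 311 and 393 counts in siPAK4 replicates 1 to 4, against 1028, 993, 964 and 915 in siControl replicates 1 to 4. The label stellate cell was only partly borne out by marker genes: 10 stellate markers summed to 415 to 604 CPM (counts scaled to library size) in siPAK4 and 962 to 1373 CPM in siControl, and Lrat averaged 0.216 and 0.0269 CPM. In the same libraries 12 endothelial markers summed to 4276 to 6309 CPM in siPAK4 and 7053 to 7337 CPM in siControl, and 12 macrophage markers to 1598 to 2107 and 2544 to 3038 CPM. The 10 lymphocyte markers summed to 1.45 to 1.94 and 1.34 to 1.80 CPM, and the neutrophil genes Ly6g, Elane and Retnlg had no read in any library. In bulk RNA, fewer cells of a type and less RNA per cell cannot be told apart. The library of siPAK4 replicate 3 stood apart on the second principal component (13.3% of the variance), and it had the lowest endothelial marker sum (4276 CPM) and the highest macrophage marker sum of its group (2107 CPM). Fold changes of members in which it was the highest or lowest siPAK4 library are also given without it.

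All 10 genes passed the filter on low counts. In the fit across all 17975 tested genes, 8 of the 10 were past an adjusted p of 0.05, 3 of them higher (Sele, Selp, Icam1) and 5 lower (Vcam1, Itgal, Itgam, Itgb2, Itga4), while Selplg and Icam2 were not. Over all tested genes 26.9% were past it, 12.4% higher and 14.5% lower. The members' log2 fold changes ran from −0.68 to 2.11 with a median of −0.23, beside a median of 0.0052 for all tested genes. The directions of all genes depended on the scaling: 46.1% of the genes called were higher with TMM scaling and 67.6% with library totals alone. The direction of each of the 10 genes was the same in all 17 alternative settings.

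The selectin genes were the members with the widest difference. Sele, which encodes the E-selectin of cytokine-activated endothelium, had 25.6, 32.5, 39.0 and 26.7 CPM in siPAK4 replicates 1 to 4. In siControl replicates 1 to 4 it had 9.14, 5.25, 6.58 and 7.71 CPM. The lowest siPAK4 library was thus well above the highest siControl library, and the log2 fold change was 2.11 (SE 0.173, n = 4 each). Without siPAK4 replicate 3, the library with the most Sele, it was 1.98.

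Selp, which encodes the P-selectin stored in endothelial Weibel-Palade bodies and in platelet granules, had 92.0, 124, 139.6 and 99.1 CPM in siPAK4 replicates 1 to 4. In siControl replicates 1 to 4 it had 34.6, 22.6, 24.2 and 23.7 CPM. The groups were again apart, with siControl replicate 1 above the other siControl libraries. On the log2 scale the fold change was 2.11 (SE 0.161, n = 4 each), and it was 2.00 without siPAK4 replicate 3 and 2.27 without siControl replicate 1. Among 5 tested markers of platelets, which also make Selp, 2 were higher, 0 lower and 3 not past the threshold. The higher ones were the platelet chemokine genes Ppbp, with 12.3 CPM in siPAK4 and 4.35 CPM in siControl (log2 fold change 1.502, edgeR adjusted p = 2.2e-05), and Pf4, with 380.0 and 283 CPM (0.42, edgeR adjusted p = 0.016). The platelet integrin gene Itga2b had 3.81 and 4.15 CPM (−0.12, edgeR adjusted p = 0.57), and the part of platelet RNA in the Selp value was not tested. Of all tested genes, 70 were called higher by at least as much as Selp. The groups did not overlap for 8 of the 10 members, the exceptions being Selplg and Itgam; over all tested genes the groups did not overlap for 28.8%.

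Sele and Selp moved in step. Both had their highest siPAK4 value in replicate 3 and their highest siControl value in replicate 1. Per transcript length, Selp stood at 3.54 ± 0.168 times the level of Sele in siPAK4 and at 3.52 ± 0.543 times in siControl (ratio of deposited TPM, SD, n = 4 each), and the groups overlapped in this ratio, which library scaling does not touch. Their deviations from the group means correlated with r = 0.89 over the 8 libraries, and with r = 0.85 without siPAK4 replicate 3. A value of this size was not particular to the pair. Among members on different chromosomes, r was 0.93 for Selplg and Itgb2, 0.85 for Selp and Icam1 and −0.89 for Selp and Icam2. Other pairs were near 0, such as Sele and Vcam1 at −0.088. All these values share their libraries' depth and cell make-up.

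The genes lie close together on chromosome 1 (build mm10), Sele at 164039614 to 164058487 and Selp at 164115264 to 164150026, with 56776 bases between them. Windows of 250 bases before to 50 after a transcription start site of each gene are shown because these genes moved together. The site is at 164048234 for Sele, inside the RefSeq gene span given above, and at 164115264 for Selp, where the span begins. They are from RefSeq, GRCm38.p6, plus strand, chr1:164047984-164048283 for Sele and chr1:164115014-164115313 for Selp, and the capitals mark the AP-1 letters TGANTCA.
Sele: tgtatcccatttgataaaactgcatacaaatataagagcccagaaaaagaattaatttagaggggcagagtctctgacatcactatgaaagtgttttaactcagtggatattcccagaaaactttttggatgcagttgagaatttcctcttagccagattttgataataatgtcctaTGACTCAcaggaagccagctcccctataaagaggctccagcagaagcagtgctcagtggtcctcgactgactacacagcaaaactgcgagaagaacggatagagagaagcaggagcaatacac
Selp: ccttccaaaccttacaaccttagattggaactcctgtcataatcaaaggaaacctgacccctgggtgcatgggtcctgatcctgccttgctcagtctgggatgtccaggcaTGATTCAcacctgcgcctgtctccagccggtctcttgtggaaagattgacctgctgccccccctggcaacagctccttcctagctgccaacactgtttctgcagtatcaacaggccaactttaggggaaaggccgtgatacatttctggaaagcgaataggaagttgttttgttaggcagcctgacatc
The AP-1 letters began at position −73 from the start site in Sele (TGACTCA) and at −139 in Selp (TGATTCA). They occurred in 7.81% of 32841 promoter windows of the same length, searched on both strands. The other searches were the NF-kB motif (4.51% of windows), the interferon response element (3.44%), AGATAA for GATA factors (11.2%) and GAGGAAGT for PU.1 (3.20%). None of these patterns matched in the Sele or Selp windows, so no match overlapped another. None of the 5 motifs matched in the windows of Icam1, Itgam or Itga4, the other members with a window. Each motif was searched as a single fixed pattern of letters, so a site that departs from the pattern by a letter would be missed. The lack of a match therefore does not show that these windows hold no NF-kB site. Whether they hold variant NF-kB sites was not tested.

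The neighbours on chromosome 1 were looked at after the values of Sele and Selp had been seen. Within 100 kb on either side of the Sele to Selp stretch, 8 genes were tested, of which 3 were higher (Sele, Selp and F5) and 0 lower. F5, the gene of coagulation factor V next to Selp, was higher at a low level, with 4.56 ± 0.646 CPM in siPAK4 and 2.39 ± 0.761 CPM in siControl (log2 fold change 0.93, edgeR adjusted p = 0.0048). Slc19a2, a thiamine transporter gene beyond F5, had 44.0 and 41.9 CPM and did not pass (log2 fold change 0.069, edgeR adjusted p = 0.46).

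Selplg (chromosome 5, 113817798 to 113832528), which encodes the selectin ligand PSGL-1 of leukocytes, did not follow the selectins. It had 39.9, 39.6, 54.8 and 44.7 CPM in siPAK4 replicates 1 to 4. The siControl values were 48.0, 55.1, 48.9 and 52.9 CPM. Replicate 3 of siPAK4 lay among the siControl libraries and the other siPAK4 libraries lay below all of them. The log2 fold change of −0.20 (SE 0.0989) was not past the threshold, but without siPAK4 replicate 3 it was −0.31 and past it.

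**Figure D1:**
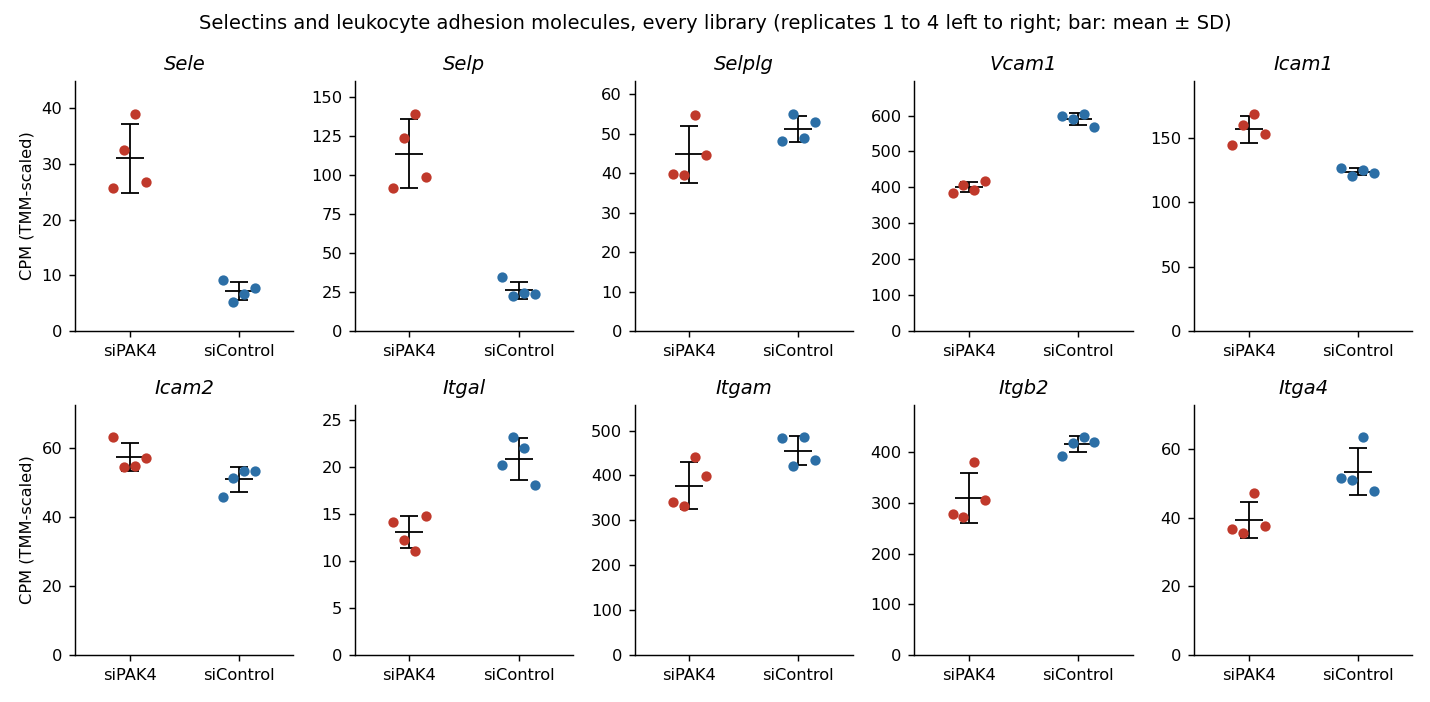
CPM of each of the 10 genes (y axis, from 0, library size scaled by TMM) in the 4 siPAK4 libraries (red, left) and the 4 siControl libraries (blue, right), with mean and SD. Sele and Selp were several times higher in every siPAK4 library, Vcam1 was lower in every one, and the groups of Selplg and Itgam overlapped.

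The immunoglobulin-like counter-receptors went different ways. Vcam1 (chromosome 3, 116110020 to 116129688), the ligand of the alpha-4 beta-1 integrin, was the most abundant member and fell with siPAK4. It had 385, 407, 394 and 417 CPM in siPAK4 replicates 1 to 4, against 599, 591, 605 and 568 CPM in siControl replicates 1 to 4. The libraries of each group lay close together, with a coefficient of variation of 3.52% in siPAK4 and 2.73% in siControl. Its log2 fold change was −0.56 (SE 0.0530), or 0.678 of the siControl level.

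Icam1 (chromosome 9, 21015940 to 21028814), the ligand of the beta-2 integrins, rose, but much less than the selectins. It had 145, 160.3, 169 and 153 CPM in siPAK4 replicates 1 to 4. In siControl replicates 1 to 4 it had 127, 120.4, 125 and 123 CPM. No siPAK4 library came as low as any siControl library, and the log2 fold change was 0.34 (SE 0.0567), or 0.30 without siPAK4 replicate 3.

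Icam2 (chromosome 11, 106377656 to 106388139), a constitutive ICAM of endothelium that also binds beta-2 integrins, differed by less. It had 63.2, 54.5, 55.0 and 57.3 CPM in siPAK4 replicates 1 to 4, against 45.8, 51.3, 53.3 and 53.3 CPM in siControl replicates 1 to 4. The groups were apart only narrowly, the lowest siPAK4 library at 54.5 CPM beside the highest siControl library at 53.3 CPM. The log2 fold change of 0.17 (SE 0.0692) was not past the threshold, though it was with library totals alone (0.26).

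The opposite directions of Icam1 and Vcam1 changed their balance within each library. Per transcript length, Icam1 stood at 0.495, 0.519, 0.566 and 0.483 times the level of Vcam1 in siPAK4 replicates 1 to 4. In siControl replicates 1 to 4 the ratio was 0.280, 0.269, 0.272 and 0.285. All siPAK4 libraries were higher than all siControl libraries in this ratio, which has no library scaling in it.

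The leukocyte integrin genes were lower with siPAK4 to different degrees. Itgb2 (chromosome 10, 77530329 to 77565708), the shared beta-2 chain (CD18), had 279, 272, 380.1 and 306 CPM in siPAK4 replicates 1 to 4. It had 393, 419, 430 and 421 CPM in siControl replicates 1 to 4. All siPAK4 libraries were lower, replicate 3 the least so. The log2 fold change was −0.43 (SE 0.0947), and −0.54 without siPAK4 replicate 3.

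Itgam (chromosome 7, 128062640 to 128118491), the alpha chain of the macrophage integrin Mac-1 (CD11b), had 341, 331, 440.3 and 399 CPM in siPAK4 replicates 1 to 4. It had 483, 421, 485 and 434 CPM in siControl replicates 1 to 4. Replicate 3 of siPAK4 exceeded siControl replicates 2 and 4, so the groups overlapped. Its log2 fold change was −0.27 (SE 0.0921), and Itgam was past the threshold by little. It was not past it without siPAK4 replicate 1 (−0.22), 2 (−0.21) or 4 (−0.30), nor without siControl replicate 1 (−0.24), 2 (−0.31), 3 (−0.24) or 4 (−0.29). Without siPAK4 replicate 3 it was past it, at −0.35.

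Itgal (chromosome 7, 127296139 to 127335137), the alpha chain of LFA-1 (CD11a), the lymphocyte and monocyte integrin that binds ICAM-1 and ICAM-2, was a weakly expressed member. It had 14.1, 12.2, 11.04 and 14.7 CPM in siPAK4 replicates 1 to 4, against 20.2, 23.1, 21.95 and 18.03 CPM in siControl replicates 1 to 4. The groups were apart and the log2 fold change, −0.68 (SE 0.106), was the most negative of the members; without siPAK4 replicate 3 it was −0.61. Unlike the other integrin genes, Itgal was at its lowest in siPAK4 replicate 3.

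Itga4 (chromosome 2, 79255426 to 79333114), the alpha-4 chain that binds VCAM-1 together with the beta-1 chain, had 36.9, 35.7, 47.4 and 37.6 CPM in siPAK4 replicates 1 to 4. It had 51.7, 51.0, 63.5 and 47.8 CPM in siControl replicates 1 to 4. The highest siPAK4 library, replicate 3, came just under the lowest siControl library, replicate 4. Its log2 fold change was −0.44 (SE 0.106), and −0.54 without siPAK4 replicate 3.

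**Figure D2:**
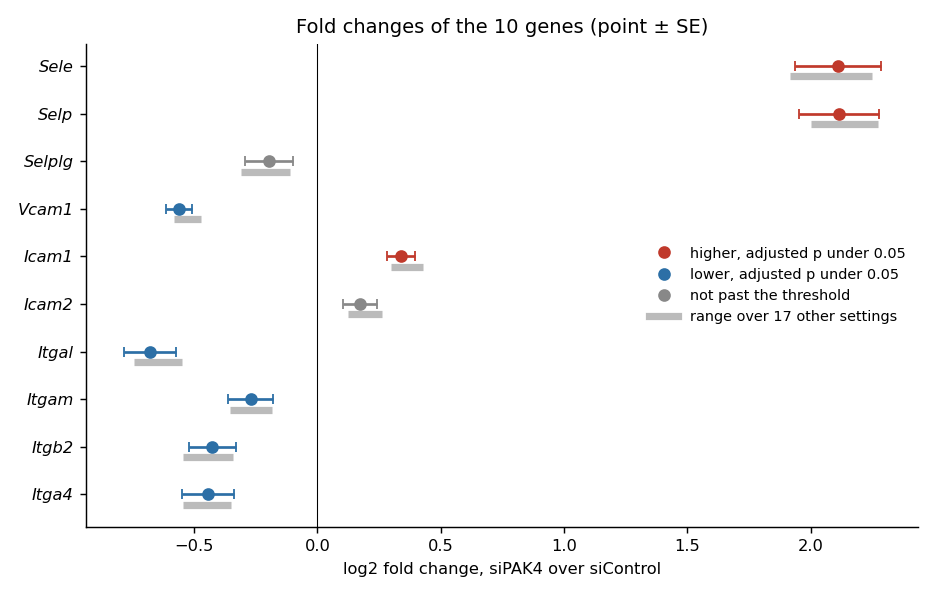
Log2 fold change of each gene, siPAK4 over siControl (x axis, point ± SE, 4 libraries a group), with the range over 17 other settings as a grey bar. Sele and Selp stood at 2.11, Icam1 at 0.34, and Vcam1 and the integrin genes between −0.68 and −0.27.

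Many macrophage transcripts were lower with siPAK4, as the integrin genes were. There were 7 lower, 0 higher and 4 not past the threshold among 11 tested macrophage markers, with Clec4f near 0 in both groups (0.136 and 0.0746 CPM). The marker sum was 1655, 1598, 2107 and 1911 CPM in siPAK4 replicates 1 to 4 and 2544, 3038, 2826 and 2788 CPM in siControl replicates 1 to 4. Within the groups, the deviations of Selplg, Itgb2, Itgam and Itga4 correlated with those of this sum at r = 0.93, 0.89, 0.60 and 0.57 over 8 libraries, while Itgal gave −0.063. Without siPAK4 replicate 3 these values were 0.89, 0.88, 0.22 and 0.14 over 7 libraries, and 0.64 for Itgal, so those of Itgam, Itga4 and Itgal rested on that library. Set against Adgre1, a general macrophage gene whose own change did not pass (log2 fold change 0.14, edgeR adjusted p = 0.34), Itgb2 stood at 0.806 ± 0.0312 in siPAK4 and 1.18 ± 0.105 in siControl, and Itgam at 0.608 ± 0.0393 and 0.792 ± 0.0422 (TPM ratios, SD, n = 4 each). The groups did not overlap in either ratio, but the direction depended on the marker. Over 10 macrophage markers with a TPM above 0 in every library, every siPAK4 library was above every siControl library in 6 ratios and below in 3 for Itgb2, and above in 6 and below in 1 for Itgam, with overlap in the rest. Against the colony-stimulating factor receptor gene Csf1r, Itgam stood at 1.123 ± 0.0278 in siPAK4 and 1.096 ± 0.101 in siControl, and against the scavenger receptor gene Marco at 1.05 ± 0.0826 and 0.565 ± 0.0733 (TPM ratios, SD, n = 4 each). The part of macrophage content in the lower integrin values was not tested.

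The integrin genes kept much of their balance with one another. The ratio of Itgam to Itgb2 was 0.754 ± 0.0350 in siPAK4 and 0.676 ± 0.0633 in siControl, that of Itgal to Itgb2 was 0.0241 ± 0.00528 and 0.0277 ± 0.00290, and that of Itga4 to Itgb2 was 0.0374 ± 0.00138 and 0.0377 ± 0.00434 (TPM ratios, SD, n = 4 each). The groups overlapped in all 3 ratios. Selplg stood higher relative to Itgb2 in every siPAK4 library, at 0.160 ± 0.00217 in siPAK4 against 0.137 ± 0.00789 in siControl, with no overlap.

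Endothelial markers went different ways. Among 12 of them there were 6 lower, 2 higher and 4 not past the threshold. The higher ones were Clec14a, an endothelial lectin-like gene with 116 CPM in siPAK4 and 25.8 CPM in siControl (log2 fold change 2.17, edgeR adjusted p = 1.4e-08), whose fold was as large as those of Sele and Selp, and the angiopoietin receptor gene Tek (0.32, edgeR adjusted p = 0.019). The marker sum was lowest in siPAK4 replicate 3, the library with the most Sele and Selp. Within the groups, the deviations of Sele, Selp and Icam1 correlated with those of this sum at r = −0.65, −0.65 and −0.89 over 8 libraries. Without siPAK4 replicate 3 these values were −0.45, −0.49 and −0.84 over 7 libraries. Itgb2 and Selplg gave −0.80 and −0.73 with that library, but 0.29 and 0.33 without it. Icam2 and Itgal went the other way, at 0.43 and 0.74 with it and 0.44 and 0.58 without it. The 8 tested markers of venous and arterial endothelium other than Selp were 3 higher, 2 lower and 3 not past the threshold, and they summed to 232 to 277 CPM in siPAK4 and 270.1 to 307 CPM in siControl; Vwf, the Weibel-Palade body protein gene stored with P-selectin, had 39.2 and 39.1 CPM. Selp stood at 0.0841, 0.140, 0.235 and 0.0953 times the TPM of the endothelial cadherin gene Cdh5, itself lower (log2 fold change −0.63, edgeR adjusted p = 0.010), in siPAK4 replicates 1 to 4, against 0.0236, 0.0158, 0.0175 and 0.0181 in siControl replicates 1 to 4; without siPAK4 replicate 3 the siPAK4 mean was 0.107. Against Icam2 the ratio of Selp was 0.741 ± 0.178 in siPAK4 and 0.194 ± 0.0569 in siControl, and that of Sele was 0.211 ± 0.0560 and 0.0557 ± 0.0153 (SD, n = 4 each). The groups were apart in these 3 ratios. Over all 12 endothelial markers, chosen as denominators after the values had been seen, every siPAK4 library was above every siControl library in 11 ratios for Sele and in 11 for Selp. The exception for both was Clec14a, against which Selp stood at 1.299 ± 0.249 in siPAK4 and 1.35 ± 0.318 in siControl, and Sele at 0.370 ± 0.0811 and 0.389 ± 0.0934 (TPM ratios, SD, n = 4 each). The part of endothelial content in the selectin values was not tested.

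**Figure D3:**
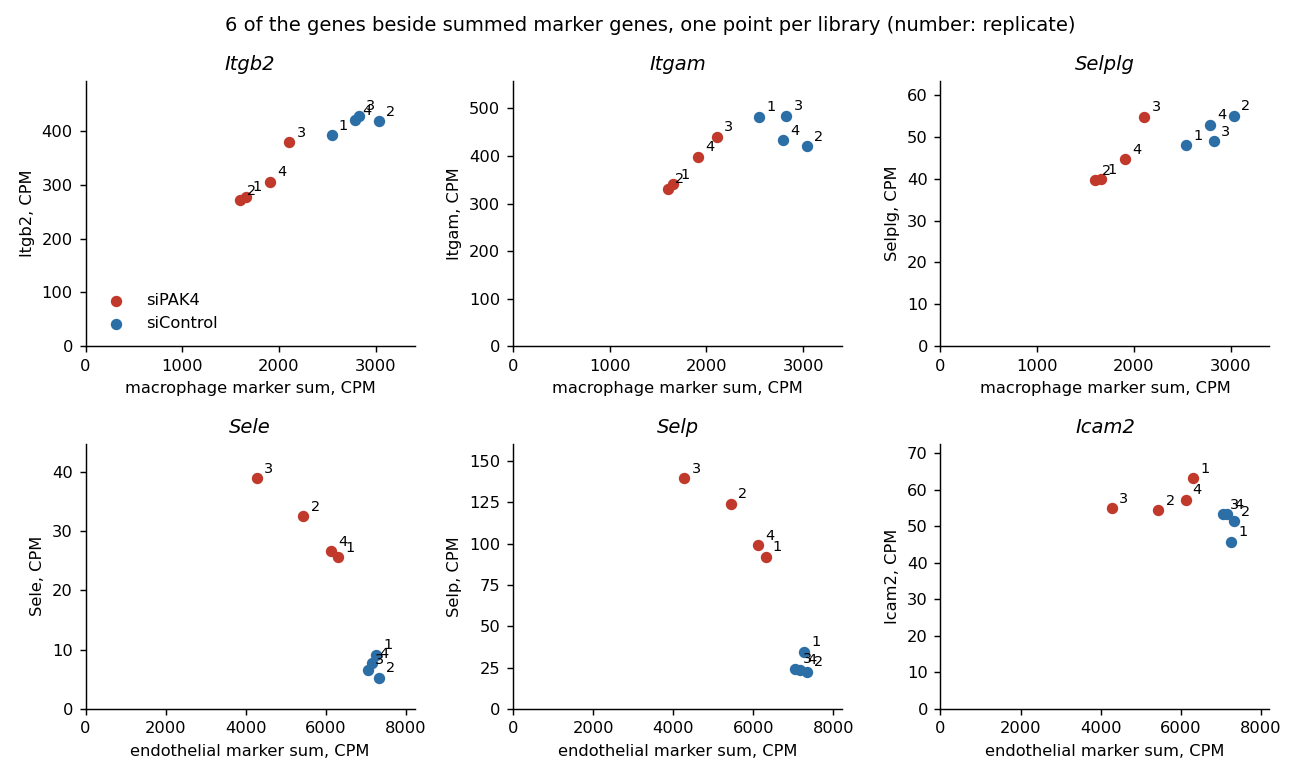
CPM of 6 genes (y axes) against the summed CPM of macrophage markers (upper row) or endothelial markers (lower row), one point per library with its replicate number, siPAK4 in red and siControl in blue. Within the groups, the deviations of Itgb2 and Selplg correlated with those of the macrophage sum (r = 0.89 and 0.93 over 8 libraries). Across the groups, Selplg in siPAK4 replicate 3 lay among the siControl libraries at a lower macrophage sum. Sele and Selp were highest in siPAK4 replicate 3, where the endothelial sum was 4276 CPM.

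Levels can be compared between genes on the TPM scale, which is per transcript length. In siPAK4 the order ran Vcam1 (259 ± 17.5 TPM), Itgb2 (234 ± 22.8), Itgam (176 ± 12.5), Icam1 (134 ± 8.20), Icam2 (99.4 ± 10.5), Selp (72.5 ± 12.7), Selplg (37.6 ± 3.62), Sele (20.6 ± 3.95), Itga4 (8.77 ± 0.745) and Itgal (5.55 ± 0.858 TPM; SD, n = 4 each). In siControl it ran Vcam1 (372 ± 18.2 TPM), Itgb2 (308 ± 9.33), Itgam (209 ± 18.6), Icam1 (103 ± 4.28), Icam2 (85.5 ± 4.38), Selplg (42.2 ± 2.296), Selp (16.4 ± 3.84), Itga4 (11.7 ± 1.60), Itgal (8.57 ± 1.01) and Sele (4.72 ± 1.08 TPM; SD, n = 4 each). Selp thus stood above Selplg and Sele above Itga4 and Itgal only in siPAK4. Neighbours in the siControl order did not overlap between libraries; in siPAK4 Vcam1 (236 to 279 TPM) and Itgb2 (219 to 268 TPM) did. Among all tested genes Sele stood at the percentile 62.7 in siPAK4 and 37.5 in siControl, while Vcam1 stood at 97.2 and 98.0.

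**Figure D4:**
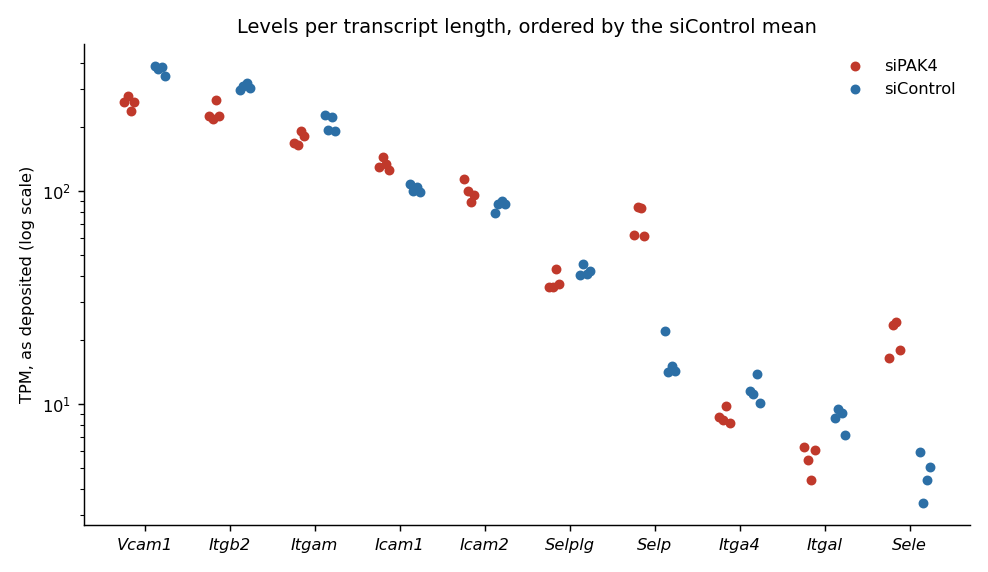
TPM of the 10 genes as deposited (y axis, log scale), one point per library, siPAK4 in red to the left of siControl in blue, ordered by the siControl mean. Sele and Selp changed places with their neighbours between the groups, while the first 5 genes kept their order.

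The other genes of leukocyte adhesion were read in 6 lists with 75 entries, of which 69 passed the low-count filter, with 15 higher, 23 lower and 31 not past the threshold. That is 55.1% past the threshold, with 21.7% higher and 33.3% lower, beside 26.9%, 12.4% and 14.5% over all tested genes. The lists were chosen with earlier results of these data known, so these shares are a description. Among 16 selectin partners and ligand-making enzymes 1 was higher, 6 lower and 9 not past it (median log2 fold change −0.17). Cd34, a sialomucin of vascular endothelium and progenitor cells, was lower with 84.6 CPM in siPAK4 and 106 CPM in siControl (−0.33, SE 0.0475, edgeR adjusted p = 0.00039), as were Cd24a (−0.50, edgeR adjusted p = 0.0010), a mucin-like P-selectin ligand, and the sulfotransferase gene Chst2 (−0.74, edgeR adjusted p = 0.0035). The 14 other vascular adhesion genes held 2 higher, 4 lower and 8 not past it (median −0.22), with the junctional gene Jam3 (−0.55, edgeR adjusted p = 0.0024) and Cd99l2 (−0.22, edgeR adjusted p = 0.0071) lower and Cd47 (0.30, edgeR adjusted p = 0.0063), a ligand of SIRP-alpha, higher.

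Partners of the integrin members were mostly lower or not past the threshold. Of 7 other integrin subunits 1 was higher, 2 lower and 4 not past it (median −0.12). Itgb1, the beta-1 partner of Itga4, was lower with 1148 CPM in siPAK4 and 1632 CPM in siControl (−0.51, SE 0.0625, edgeR adjusted p = 0.00013). Itgax, the CD11c chain that pairs with Itgb2, was lower too, with 36.2 and 65.7 CPM (−0.86, edgeR adjusted p = 0.0015). Itgb7, the other partner of Itga4, was higher, with 16.7 and 13.1 CPM (0.35, edgeR adjusted p = 0.031), but not past the threshold without siPAK4 replicate 1 (0.32) or siControl replicate 1 (0.26) or 2 (0.31). Of 12 integrin activation genes 1 was higher, 6 lower and 5 not past it (median −0.38), among them the talin gene Tln1 (−0.49, edgeR adjusted p = 0.00017), the RIAM gene Apbb1ip (−0.71, edgeR adjusted p = 0.00022) and the leukocyte kindlin gene Fermt3 (−0.37, edgeR adjusted p = 0.0027), all lower.

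Shedding and anchoring genes were split, with 2 higher, 4 lower and 1 not past the threshold of 7 (median −0.25). Adam17, the sheddase of TNF, was higher (0.25, edgeR adjusted p = 0.0056), and Adam10 (−0.38, edgeR adjusted p = 0.0050) and the ezrin gene Ezr (−0.51, edgeR adjusted p = 0.0010) were lower. Of 13 tested inducing cytokines, receptors and NF-kB genes 8 were higher, 1 lower and 4 not past it (median 0.48). Tnf, a cytokine that induces E-selectin, VCAM-1 and ICAM-1 in endothelium, was higher, with 35.6 CPM in siPAK4 and 21.4 CPM in siControl (0.73, SE 0.0824, edgeR adjusted p = 7e-05). The NF-kB inhibitor gene Nfkbia, itself an NF-kB target, was higher (0.92, edgeR adjusted p = 2.4e-06), as was Nfkb1 (0.54, edgeR adjusted p = 5.1e-05). Sele, Selp and Icam1 had the direction of this list's median and Vcam1 the opposite one. The part of these cytokines and of NF-kB in the values of the members was not tested.

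**Figure D5:**
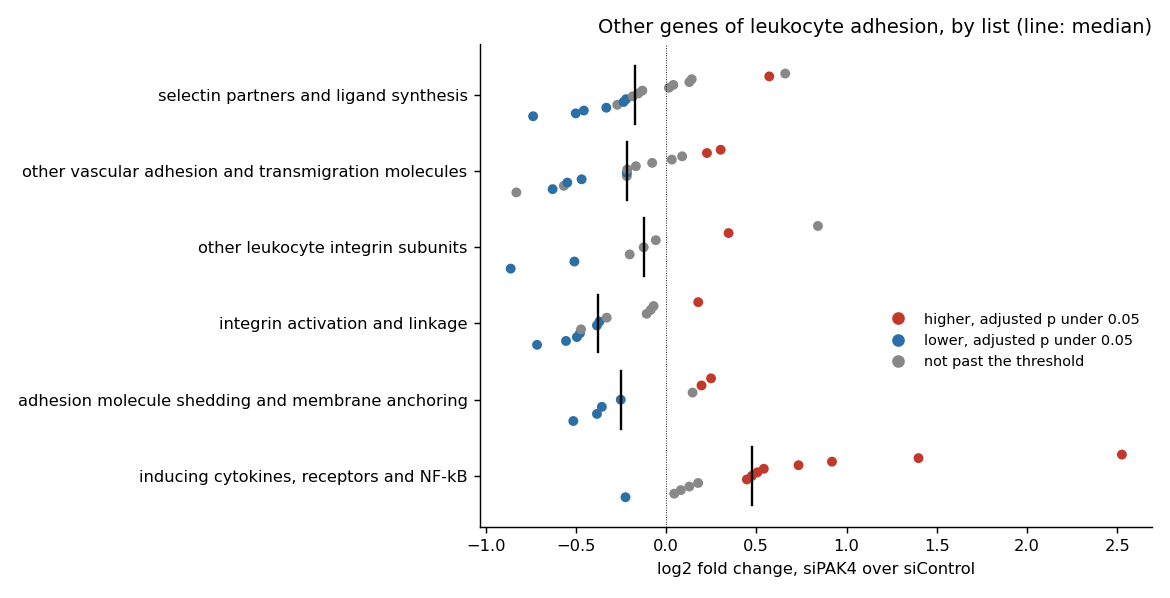
Log2 fold change, siPAK4 over siControl (x axis), of the 69 tested genes in the 6 lists, coloured by direction where the adjusted p was under 0.05, with the list median as a line. The medians lay between −0.38 and −0.12 in 5 lists and at 0.48 in the list of inducing cytokines, receptors and NF-kB.

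The genes most like 4 of the members over the 8 libraries were named by Pearson's r of log2 CPM among 11355 other genes with a mean of at least 5 CPM. The libraries share their groups, and r does not depend on the size of the difference between them. Nearest to Sele were Riox2 (r = 0.998), Prdx6 (0.997) and Car8 (0.996), with log2 fold changes of 0.38, 0.71 and 1.501. Nearest to Vcam1 were the chemokine gene Cxcl12 (r = 0.996), the Wnt antagonist gene Frzb (0.994) and the heparan sulfatase gene Sulf1 (0.993), with log2 fold changes of −1.10, −1.09 and −1.34. Nearest to Icam1 were Atp10a (r = 0.995), the necroptosis effector gene Mlkl (0.995) and the kinase gene Tbk1 (0.994), and nearest to Itgam were Psmd1 (r = 0.993), Haus6 (0.987) and Tlr7 (0.979), an endosomal RNA sensor gene.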

How the data were processed

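Polyadenylated RNA of 8 primary mouse stellate cell libraries was compared, siPAK4 (4) against siControl (4), all labelled as batch 1. The submitters' processing notes name StringTie 2.1.3b, Bowtie2 2.3.4.1, HISAT2 2.1.0, FastQC 0.11.7 and bcl2fastq 2.20.0, with no roles, and genome build mm10. How reads were counted, and on which strand, is not given in the sources used here. Tests ran on the raw read counts that the authors deposited; the deposited FPKM and TPM values are scaled by the authors to depth and transcript length, per the file headers, and TPM served for levels between genes. All value columns were matched by library name. Replicate libraries differed by more than sampling noise (chi-square per degree of freedom 12.7 to 67.8).

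Genes were filtered with filterByExpr of edgeR 4.0.16 (minimum count 10), scaled by TMM and tested with edgeR's quasi-likelihood test under Benjamini-Hochberg adjustment over 17975 genes (R 4.3.3). The threshold was 0.05. Fold changes are siPAK4 over siControl, with SE from the F statistic. CPM used the TMM-scaled library size, and log2 CPM a prior of 0.5. Alternatives were DESeq2 1.42.0, limma 3.58.1, other scalings and filters, log2(TPM + pseudocount of 1 or 0.1), each library left out, and a replicate block. The procedure was tested on simulated counts. The members and lists were chosen with earlier results of these data known; of each list up to 3 genes past the threshold with the smallest adjusted p were named, besides Pak4 and, for 4 members, the 3 genes with the highest r. Cd99 was not analysed here. Coordinates and promoter windows are from RefSeq tables of GRCm38.p6, the build also called mm10, which matched 45679 gene identifiers and gave windows for 5 of the 10 members. The smallest count of a member in a library was 294 (Sele), a counting error of 5.83%, against a spread between libraries of 19.9% in siPAK4 and 23.0% in siControl.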

Additional observations from a re-analysis of the deposited data

Results flagged for a closer look

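In 58 groups of 4 libraries (29 genes named from the lists or as members), 5 held a library whose gap to its nearest neighbour took up most of the range of its group; chance marks about 5% of groups. Selp stood at 34.6 CPM in siControl replicate 1, with the next library at 24.2 CPM. Itga4 stood at 47.4 CPM in siPAK4 replicate 3, with the next at 37.6 CPM. Apbb1ip was at 16.8 CPM in siControl replicate 4, with the next at 21.6 CPM. Fermt3 was at 128 CPM in siControl replicate 2, with the next at 122 CPM, and Ezr at 84.1 CPM in siPAK4 replicate 1, with the next at 105 CPM.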

How the results depend on the processing

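Of the 10 members, 8 were past the threshold in the reported fit, 7 without a low-count filter and 8 in the other settings that kept every library. Leaving out 1 library gave 7 to 9 members, 3 higher throughout and 4 to 6 lower. The call of Itgam was lost in 9 of 17 settings, among them library totals (−0.18) and no filter (−0.27); that of Icam2 was gained with library totals. Over all genes, library totals gave 3875 higher and 1860 lower, and leaving out 1 library 1599 to 2496 higher and 1944 to 2998 lower. The companion genes past the threshold were 38 (15 higher, 23 lower) and, with 1 library left out, 32 to 44 (12 to 19 higher, 19 to 25 lower); log2(TPM + 1) gave 15 lower, and the cause was not tested. Calls of Cd47, Cd99l2, Itgb7 and Adam10 were lost in 9 of 323 gene and setting pairs for the 18 named companions and Pak4. In siControl the order of mean levels was the same in FPKM for all 10 members, and the siPAK4 order was not compared. Within a library FPKM and TPM order genes alike, so this was no separate check.

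No pairing by replicate number was seen: same-numbered libraries correlated in their deviations at −0.097 to 0.17, and 2 of 8 correlated best with their own number. With 4 libraries a group this cannot show whether same-numbered libraries shared an animal or isolation. With the replicate block 2056 genes were higher and 2531 lower, and 8 members (3 higher, 5 lower) and 39 companions (15 higher, 24 lower) were past the threshold.

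Depth limits Sele and Itgal most among the members, with a counting error of 5.83% and 3.88% at their smallest counts.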

Other observations

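Monocyte genes outside the comparisons above went different ways: Ly6c2 averaged 4.36 CPM in siPAK4 and 1.71 CPM in siControl (log2 fold change 1.35, edgeR adjusted p = 9.3e-05), while the chemokine receptor gene Ccr2 averaged 2.44 and 7.70 CPM (log2 fold change −1.65, edgeR adjusted p = 0.00045). Among venous and arterial endothelial markers, Rspo3, the R-spondin gene of central vein endothelium, was higher, with 28.3 CPM in siPAK4 and 14.9 CPM in siControl (log2 fold change 0.93, edgeR adjusted p = 0.00022), and Sox17, an arterial transcription factor gene, was lower, with 92.4 and 127.5 CPM (log2 fold change −0.46, edgeR adjusted p = 0.016). The connexin gene Gja5 was higher at a low level, with 0.825 and 0.256 CPM (log2 fold change 1.68, edgeR adjusted p = 0.0012).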
